A study of Homo sapiens with 2 samples.

Results

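The genes described here are the heat shock chaperones of the cytosol and mitochondria: the HSP70, HSP110, HSP40, HSP90, small heat shock protein and mitochondrial families, the CCT ring, their BAG and HSP90 co-chaperones, and the heat shock factors. The 53 members were chosen by gene symbol from a list drawn up with the values of this contrast known, so their differences are a description and carry no test. Of the 53, 50 had a usable probe set. HSPA1A and HSPA1B share their probe sets and were read as 1 entry, which gave 49 entries among 18418 measured in all. For AHSA1 and HSF2 no named probe set was used, and the probe set of ST13, an HSP70-interacting co-chaperone, is shared with pseudogenes (11.26 on the empty-vector array and 11.38 on the miR-130b array), so these 3 are not counted.

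RNA bound to Argonaute2 (Ago2), the protein that carries microRNAs and the mRNAs they pair with, was precipitated from A549, a human line established from a lung adenocarcinoma, and hybridised to Affymetrix whole-transcript arrays, per the labels. The labels' extraction text speaks of excised tissue and a small-RNA kit although both samples are labelled as this line, and which steps purified the RNA for the arrays is not settled by them. A549 cells transfected with an empty vector gave 1 array and A549 cells overexpressing miR-130b gave the other. The comparison asks which mRNAs Ago2 carries in larger amounts once miR-130b is raised. With 1 array per group there is neither a replicate error nor a p-value, and each difference (log2 with miR-130b minus log2 with the empty vector) describes these 2 arrays. No array of the RNA before precipitation, and none of a control precipitate, was analysed here, so how much of an mRNA a cell holds and which share of it Ago2 carries cannot be told apart.

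Heat shock chaperones bind unfolded proteins and let them fold, pass them to partner chaperones or deliver them for degradation. HSP40 proteins bring clients to HSP70 and start its ATP cycle, BAG proteins and HSP110 release the nucleotide, and HSP90 with its co-chaperones finishes kinases and receptors. Under heat or proteotoxic stress the transcription factor HSF1 binds heat shock elements, repeats of the block GAA and its complement TTC, and raises inducible members such as HSPA1A, while constitutive relatives such as HSPA8 work in unstressed cells. Lung carcinoma lines, like many cancer cells, express these genes without heat. The mature microRNA that was overexpressed is shown because its seed, bases 2 to 8 in capitals, is what an Ago2-bound mRNA would pair with; the sequence is that of RefSeq (GRCh38.p14, chr22:21653354-21653375, plus strand).
hsa-miR-130b-3p: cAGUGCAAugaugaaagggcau

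The arrays matched their labels in the gene of the overexpressed microRNA, MIR130B (6.66 with the empty vector, 12.64 with miR-130b; the probe set need not measure the mature form). A gene's level here is the mean of its values on the 2 arrays. Among markers of A549 and lung epithelium, 10 of 14 lay at or above the median level of all named genes (8.64). KRT8, KRT18, ALDH1A1, AKR1B10, NQO1 and TXNRD1 stood above 13 on both arrays. The epithelial cadherin CDH1 was lower with miR-130b, past 2-fold (12.61 and 11.49). The epithelial marker EPCAM (6.80 on the miR-130b array, a difference of -0.20), the alveolar marker SFTPC (7.38 and 7.33) and the lung factor NKX2-1 (6.50 and 6.43) lay below the median level. Of other cell types' markers, 2 of 7 leukocyte, 1 of 6 endothelial and 1 of 8 fibroblast genes reached the median level. The 2 leukocyte genes were CD68, past 2-fold lower with miR-130b (11.14 and 9.96), and CD14, which was higher (8.89 and 9.53). All 8 fibroblast and all 6 endothelial markers were higher with miR-130b, with median differences of 0.35 and 0.21 and ranges of 0.091 to 1.71 and 0.10 to 0.71. Most of them lie below the median level, where 65.6% of all genes were higher. The fibroblast markers ran from DCN (4.46 and 4.55) to COL1A1 (8.74 and 9.05), the 1 at or above the median level, with COL1A2 at 7.72 and 7.86 and COL3A1 at 7.34 and 7.66, and FAP (5.26 and 6.97) was the 1 past 2-fold. The endothelial markers ran from PECAM1 (4.85 and 4.97) to CLDN5 (8.59 and 8.69). Their part in the chaperone differences was not tested.

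The chaperone mRNAs were, as a list, slightly higher in the precipitate from miR-130b cells, and a few HSP70 genes were much higher. Of the 49 entries, 42 were higher and 7 lower, beside 58.6% higher among all measured genes. The median difference of the entries was 0.22 and that of all measured genes 0.053. Leaving out HSPA2 and the HSPA1A/HSPA1B entry, the median of the other 47 was also 0.22. The 44 entries at or above the median level had a median of 0.19 (37 higher, 7 lower). All 9210 genes at or above that level had a median of 0.010, and 51.5% were higher. Because level is a mean of both arrays, HSPA2 (8.61 with the empty vector) is among the 44 only through its miR-130b value. DNAJB2 (8.58 with miR-130b) is among them only through its empty-vector value. The 5 entries below the median level were HSPA6, HSPA1L, DNAJA4, CRYAB and HSPE1, all higher. In that range 65.6% of all 9208 genes were higher. When each difference was centred on the median of all genes, 40 of 49 entries were higher, with HSPB8 and CCT7 turning lower.

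Large differences were few. A difference of at least 2-fold higher was found for 2 entries (HSPA2 and HSPA1A/HSPA1B), beside 1.07% of all measured genes, and at least 2-fold lower for 1 (HSPA13), beside 1.37%. At 1.5-fold (0.585 on the log2 scale) the higher entries were 4, with HSPA1L and DNAJB4 added, beside 3.65% of all genes, and the lower entries were 2, with DNAJB5 added, beside 4.65%. Where a gene had several different probe sets, their differences varied with a pooled SD of 0.16 (356 genes at or above the median level). Of the 49 entries, 13 were higher by more than 2 such SDs (0.33), against 11.8% of all genes, and 3 were lower by more than that, against 11.6%. At or above the median level, 14 of 44 entries lay beyond 2 such SDs in either direction, HSPA2 among them. So did 2723 of all 9210 genes, a similar share. This SD covers disagreement between probes on these arrays and not variation between cultures or precipitations.

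**Figure D1:**
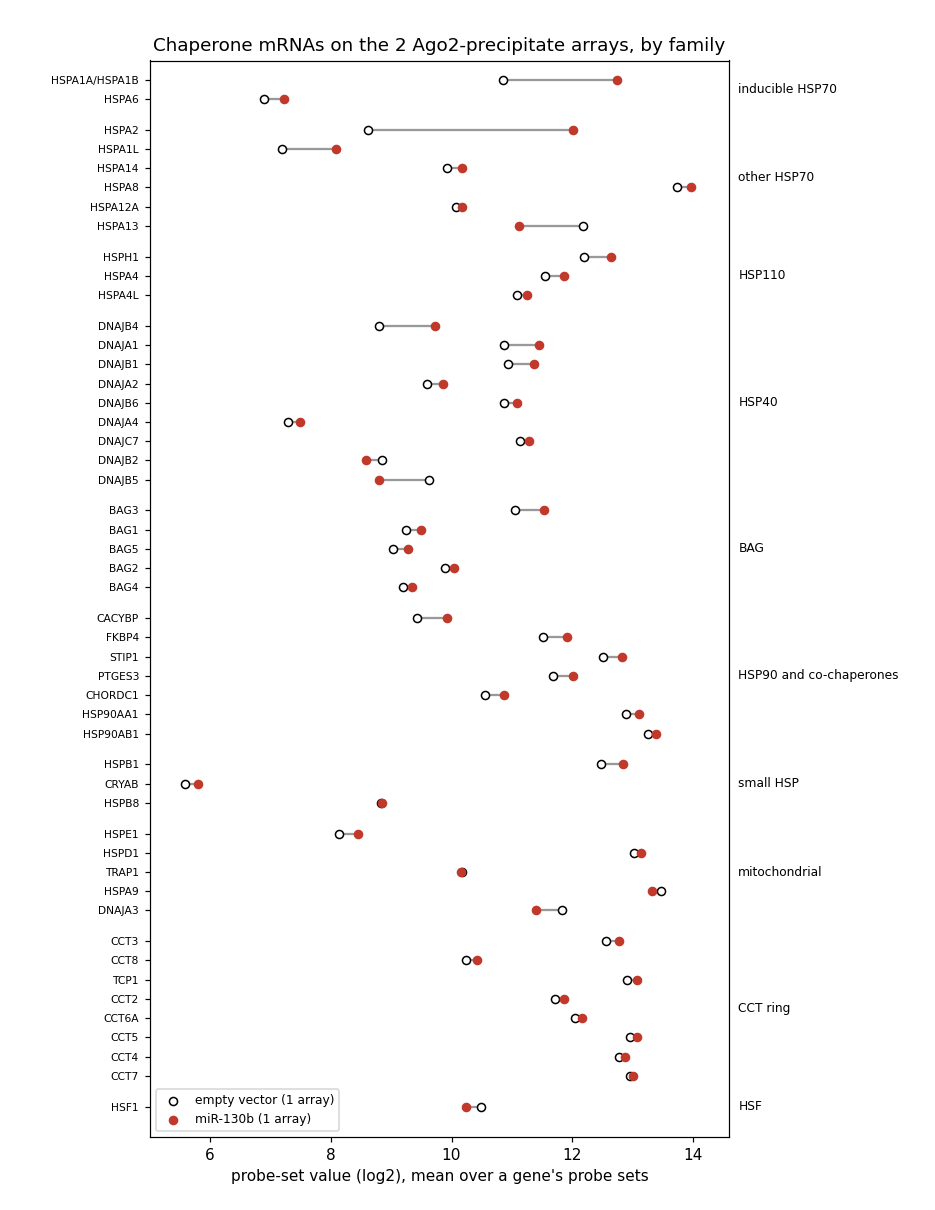
Values of the 49 chaperone entries on the empty-vector array (open circles) and the miR-130b array (filled circles), by family; the horizontal axis is the log2 value, averaged over a gene's probe sets, with 1 array per group. HSPA2, HSPA1A/HSPA1B and HSPA13 have the long connecting lines, and most other pairs of circles lie close together with the filled one to the right.

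The inducible HSP70 genes HSPA1A and HSPA1B, which encode the near-identical stress HSP70 proteins, stood at 10.86 on the empty-vector array and 12.74 on the miR-130b array. Their difference of 1.88 is 3.68-fold higher and ranks 27 among all 18418 differences. The 5 shared probe sets held 4 distinct pairs of values, because 2 of the sets were identical, and their differences ran from 1.73 to 1.97. The 4 pairs went from 11.71 to 13.47, from 11.73 to 13.46, from 10.25 to 12.21 and from 10.30 to 12.28. Every shared probe set was thus higher on the miR-130b array, and the spread between them, 0.25, was small beside the difference. Since the annotation gives each set both symbols, the part of either gene cannot be read from these values.

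HSPA6, the strictly inducible HSP70 that is nearly silent without severe stress, differed far less. Its own probe set stood at 6.89 on the empty-vector array and 7.22 on the miR-130b array, a difference of 0.33 at a level below the median of named genes. A probe set shared by HSPA6 and the related HSPA7 was at 8.82 and 8.99, a difference of 0.17.

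HSPA2, an HSP70 that is abundant in male germ cells, where it is needed for meiosis, had the largest difference of all members. It stood at 8.61 on the empty-vector array and 12.02 on the miR-130b array, 10.6-fold higher, from a single probe set. Of the 18418 differences only 2 were larger. HSPA1L, a relative also known from testis, stood at 7.19 and 8.08 (1.86-fold higher) on 3 probe sets with identical values, so they count as 1 measurement. HSPA1L, HSPA1A and HSPA1B are neighbours on chromosome 6, and HSPA1L is read in the opposite direction from HSPA1A: their RefSeq promoter windows share 241 bases.

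The constitutive HSP70 genes differed far less. HSPA8, the cognate HSC70 that folds new proteins and uncoats clathrin vesicles, stood at 13.74 and 13.97, a difference of 0.23. Both values lie close to the highest on the arrays (14.17 and 14.15), where signals can be compressed; the part of this in the difference was not tested. HSPA14, a ribosome-associated HSP70, stood at 9.93 and 10.18, and the distant relative HSPA12A at 10.07 and 10.18. The difference of HSPA1A/HSPA1B exceeded that of HSPA8 by 1.65, and the difference of HSPA2 exceeded it by 3.17.

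HSPA13 went the other way. This HSP70 is found in microsomes, in contact with the endoplasmic reticulum, so the description as cytosolic or mitochondrial does not hold for it. It stood at 12.18 on the empty-vector array and 11.12 on the miR-130b array, 2.09-fold lower, and was the only entry of the 49 at least 2-fold lower. At the 2-fold threshold it lies just inside, and DNAJB4 (0.94) just outside.

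**Figure D2:**
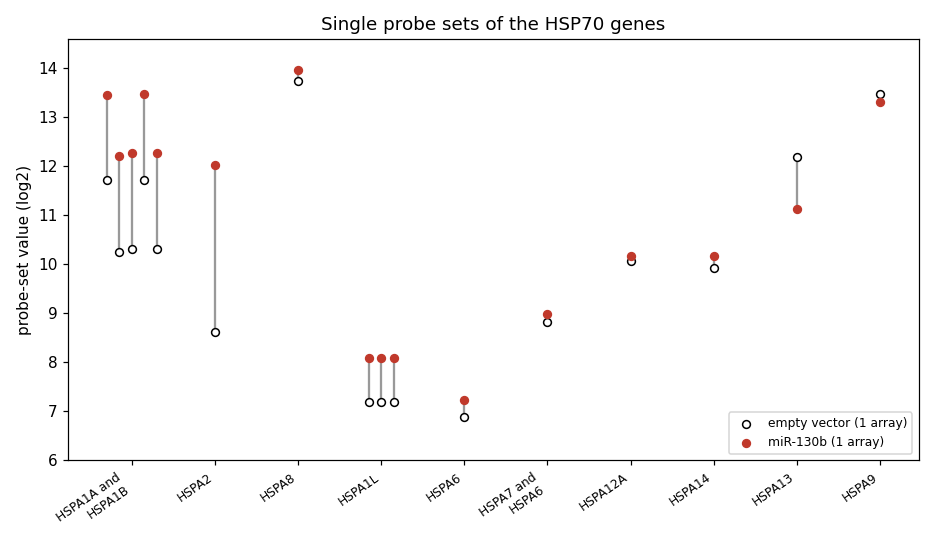
Log2 values of single probe sets of the HSP70 genes on the empty-vector array (open) and the miR-130b array (filled), each line joining the 2 values of 1 probe set. All 5 sets shared by HSPA1A and HSPA1B and the set of HSPA2 are far higher on the miR-130b array, that of HSPA13 is lower, and those of HSPA8, HSPA12A, HSPA14 and HSPA9 move by at most 0.24 either way.

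The promoters of these HSP70 genes are shown because they differ in perfect heat shock elements, the only form searched for. The windows are those of RefSeq (GRCh38.p14), from 250 bases before to 50 after a start site, and capitals mark the 3-unit heat shock elements described next or, in a window without one, the 2-unit element; further 2-unit matches beside a 3-unit element stay in lower case. A script searched for a perfect 2-unit element, GAANNTTC or TTCNNGAA (each form is its own reverse complement, so both strands are covered), and for a perfect 3-unit element, in which a further block follows in alternating order after NN, on both strands; overlapping matches are all counted. HSPA8 (chr11:123062087-123062386, minus strand) holds 2 of the 3-unit elements, starting 230 and 55 bases before the start site. HSPA1A (chr6:31815293-31815592, plus strand) holds a single perfect 2-unit element 106 bases before it. HSPA1B aligns to HSPA1A with 277 identical bases, 22 mismatches and 2 gap bases, with the same element. HSPA2 (chr14:64540491-64540790, plus strand) holds neither form.
HSPA8: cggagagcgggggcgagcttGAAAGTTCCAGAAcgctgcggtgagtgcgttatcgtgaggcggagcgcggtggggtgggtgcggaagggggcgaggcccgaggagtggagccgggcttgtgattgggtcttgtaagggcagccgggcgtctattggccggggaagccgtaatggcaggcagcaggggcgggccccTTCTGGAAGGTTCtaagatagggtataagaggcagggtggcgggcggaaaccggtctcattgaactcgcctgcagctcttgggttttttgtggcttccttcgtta
HSPA1A: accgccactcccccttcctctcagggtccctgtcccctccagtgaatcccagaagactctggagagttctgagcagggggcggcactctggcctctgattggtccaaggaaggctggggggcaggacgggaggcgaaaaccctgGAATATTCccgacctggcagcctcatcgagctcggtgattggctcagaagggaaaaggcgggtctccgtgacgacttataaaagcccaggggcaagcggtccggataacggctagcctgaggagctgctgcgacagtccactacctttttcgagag
HSPA2: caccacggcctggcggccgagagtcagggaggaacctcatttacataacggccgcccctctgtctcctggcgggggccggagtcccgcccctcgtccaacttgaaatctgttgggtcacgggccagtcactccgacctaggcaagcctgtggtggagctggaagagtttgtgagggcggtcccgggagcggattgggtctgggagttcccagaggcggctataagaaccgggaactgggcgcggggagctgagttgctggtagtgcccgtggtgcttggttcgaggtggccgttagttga

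Perfect 3-unit elements were more frequent in the chaperone promoters than in the table as a whole, and the members that hold one had modest differences. Windows on chromosome 8 were left out of the member counts, while the counts over all genes kept that chromosome. Of 46 members with a promoter used, 8 (17.4%) held a 3-unit element in at least 1 window, beside 0.608% of all 27305 genes. A 2-unit element was found in 23 members, beside 16.2% of all genes. The 8 were CHORDC1, DNAJA1, DNAJB6, HSP90AA1, HSP90AB1, HSPA6, HSPA8 and HSPD1. All 8 were higher with miR-130b, beside 58.6% of all measured genes, with differences from 0.12 to 0.57 and a median of 0.23. The 14 measured entries with only a 2-unit element had a median of 0.18 (13 higher, 1 lower), and the 21 with neither had a median of 0.22 (16 higher, 5 lower). HSPA2 and HSPA13, the extremes in each direction, are among the 21, and HSPA1A/HSPA1B among the 14. A match is a description of these letters in this window and shows nothing about binding, and imperfect elements were not searched for.

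**Figure D3:**
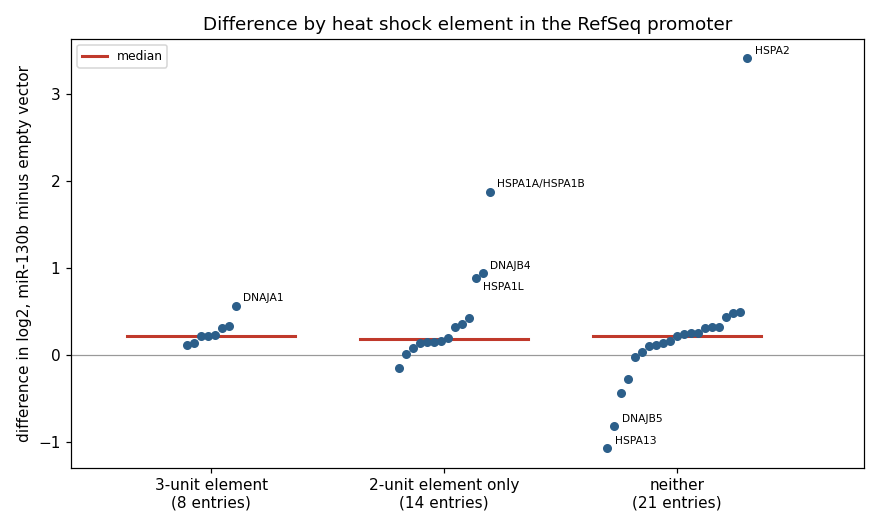
Difference in log2 (miR-130b minus empty vector) of the 43 measured entries with a promoter used, grouped by the heat shock element found there. Each point is 1 entry and the bars are group medians. The medians of the 3 groups are 0.23, 0.18 and 0.22, and the widest differences lie outside the 3-unit group.

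HSP110 proteins are large HSP70 relatives that exchange the nucleotide of HSP70 and help it to dissolve aggregates. All 3 were higher, beside 58.6% of all measured genes, with a median of 0.32. HSPH1, the heat-inducible one, stood at 12.20 and 12.64 (0.44). HSPA4, its constitutive relative, stood at 11.55 and 11.87 (0.32), and HSPA4L was at 0.16. The gap between HSPH1 and HSPA4, 0.12, is smaller than the SD between probe sets.

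Among the 9 HSP40 genes, 7 were higher and 2 lower, beside 58.6% higher among all measured genes, with a median of 0.22. DNAJB4, a cytosolic HSP40 of the DNAJB1 type, stood at 8.80 on the empty-vector array and 9.73 on the miR-130b array (1.92-fold higher). DNAJB5, its close relative, stood at 9.62 and 8.80 (1.76-fold lower). These relatives thus had the highest and the lowest difference of the family. DNAJA1, a co-chaperone of HSPA8, stood at 10.87 and 11.44 (0.57), and DNAJB1, the main heat-inducible HSP40, at 10.94 and 11.37 (0.43). DNAJA2 was at 0.26, DNAJB6, a suppressor of aggregation measured by 2 probe sets that gave the same 0.22, was next, and DNAJA4 and DNAJC7 were at 0.20 and 0.14. DNAJB2, known from neurons, was lower, at 8.85 and 8.58 (-0.27). The difference of DNAJB1 exceeded that of DNAJA2 by 0.17, only 0.73 of the probe-set SD scaled to a gap between 2 genes.

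The BAG proteins bind the HSP70 ATPase domain. All 5 were higher, beside 58.6% of all measured genes, from 0.15 (BAG4) to 0.49 (BAG3), with a median of 0.25. BAG3, a heat-inducible factor in chaperone-assisted autophagy, stood at 11.05 on the empty-vector array and 11.53 on the miR-130b array. BAG1 stood at 9.24 and 9.50 (0.26). The difference of BAG3 exceeded that of BAG1 by 0.23, which is 0.998 of the probe-set SD scaled to a gap between 2 genes.

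All 7 measured genes of the HSP90 machine were higher, beside 58.6% of all measured genes, with a median of 0.32 and a range from 0.14 to 0.50. None reached 1.5-fold, beside 3.65% higher and 4.65% lower of all measured genes. The counted co-chaperones differed by more than the HSP90 genes themselves, though not all by more than the SD between probe sets. ST13, left uncounted because its probe set is shared with pseudogenes, differed by less than either HSP90 gene (0.11). CACYBP, which links HSP90 clients to ubiquitin ligases, stood at 9.43 and 9.93, with its 2 probe sets at 0.43 and 0.56. FKBP4, an immunophilin of steroid receptor complexes, stood at 11.52 and 11.91 (0.39). STIP1, the adaptor that hands clients from HSP70 to HSP90, stood at 12.50 and 12.83, PTGES3, the p23 protein, at 11.68 and 12.01, and CHORDC1 at 10.55 and 10.86. The stress-inducible HSP90AA1 stood at 12.89 and 13.11 (0.22) and the constitutive HSP90AB1 at 13.26 and 13.39 (0.14), a gap of 0.080 that is below the SD between probe sets.

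The promoters of CHORDC1 and of the HSP40 gene DNAJA1 are shown because they hold the longest and the most downstream of the 3-unit elements found in members. In CHORDC1 (chr11:90223000-90223299, minus strand) 3 overlapping 3-unit matches form 1 continuous run. In DNAJA1 (chr9:33025023-33025322, plus strand) the match begins 3 bases past the start site. Further 2-unit matches, in lower case here, begin 205 and 23 bases before the start site in CHORDC1 and 198 bases before it in DNAJA1.
CHORDC1: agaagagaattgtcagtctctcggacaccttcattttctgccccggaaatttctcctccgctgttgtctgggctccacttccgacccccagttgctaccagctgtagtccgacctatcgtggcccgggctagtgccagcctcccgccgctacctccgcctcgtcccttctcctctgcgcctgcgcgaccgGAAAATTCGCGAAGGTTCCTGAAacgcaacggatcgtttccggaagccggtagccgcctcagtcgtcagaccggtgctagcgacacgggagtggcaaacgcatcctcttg
DNAJA1: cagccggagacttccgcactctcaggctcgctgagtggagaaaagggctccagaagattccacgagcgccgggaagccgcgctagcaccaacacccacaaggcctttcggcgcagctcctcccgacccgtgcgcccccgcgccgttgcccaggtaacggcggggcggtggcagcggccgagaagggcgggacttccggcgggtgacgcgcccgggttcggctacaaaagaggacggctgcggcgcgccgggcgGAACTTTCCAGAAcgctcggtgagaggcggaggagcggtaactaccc

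The small heat shock proteins hold unfolded proteins without ATP. HSPB1, HSP27, stood at 12.48 on the empty-vector array and 12.84 on the miR-130b array (0.36). HSPB8, the partner of BAG3, was nearly equal on the arrays, at 8.83 and 8.85 (0.014). CRYAB, alpha-B crystallin, was at 5.59 and 5.80, far below the median level of named genes, so that its difference of 0.22 lies where array background weighs most.

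The mitochondrial chaperones were not higher as a group: 2 were higher and 3 lower, beside 58.6% higher among all measured genes, with a median of -0.018. DNAJA3, the mitochondrial HSP40, had the lowest difference of the 5, from 11.83 on the empty-vector array to 11.40 on the miR-130b array (-0.44). HSPA9, mortalin, which pulls proteins through the import channel, stood at 13.47 and 13.32 (-0.15). TRAP1, the mitochondrial HSP90, was at -0.018, with its 2 probe sets at 0.029 and -0.065, so its direction is not settled; it was higher after quantile normalization. The chaperonin genes HSPD1 (13.01 and 13.13, a difference of 0.12) and HSPE1 (8.14 and 8.45, a difference of 0.31), which encode HSP60 and its lid HSP10, were higher, and their RefSeq promoter windows share 204 bases on opposite strands. HSPD1 exceeded HSPA9 by 0.27 in its difference, 1.15 times the probe-set SD scaled to a gap between 2 genes.

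The CCT ring folds actin and tubulin and is built from 8 different subunits in equal number. All 8 subunit genes were higher, beside 58.6% of all measured genes. Their differences kept to the narrow range from 0.040 (CCT7) to 0.22 (CCT3), with a median of 0.13. CCT7 alone turned lower when differences were centred on the median of all genes. CCT7 stood at 12.96 and 13.00, and CCT3 at 12.55 and 12.77. None of the 8 differed by as much as 2 probe-set SDs, which 2723 of all 9210 genes at or above the median level exceeded. The gap between the lowest and highest CCT difference was the smallest among the families with at least 5 measured members. HSF1, the activator of the heat shock genes, was lower, at 10.49 on the empty-vector array and 10.23 on the miR-130b array (-0.26).

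**Figure D4:**
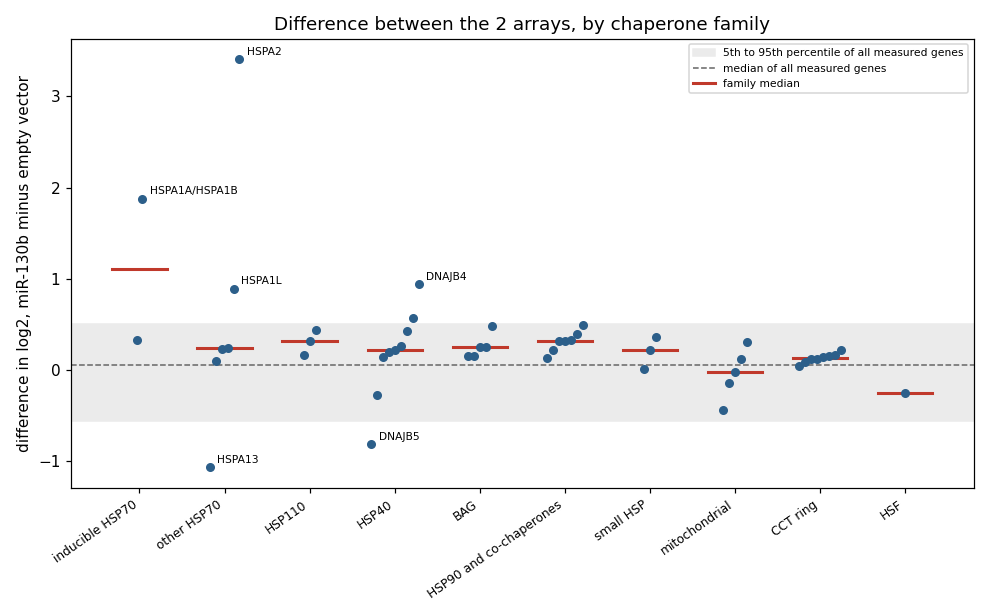
Difference in log2 (miR-130b minus empty vector) of each chaperone entry (points) by family, with the family median (red bar), the median of all measured genes (dashed line, 0.053) and the 5th to 95th percentile of all measured genes (grey band, -0.56 to 0.51). HSPA2, HSPA1A/HSPA1B, HSPA1L, DNAJB4 and DNAJA1 lie above the band and HSPA13 and DNAJB5 below it.

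Other genes of a wider chaperone network, listed outside the members and not all cytosolic, had a median close to that of all genes. Of 44 measured, 25 (56.8%) were higher and 19 lower, beside 58.6% higher among all measured genes, with a median of 0.040. None was at least 2-fold different, beside 1.07% higher and 1.37% lower of all measured genes. At or above the median level the highest were IER5, an HSF1-regulated immediate early gene (9.63 and 10.22, a difference of 0.59), and HSBP1, a binding partner of HSF1 (0.40). The lowest were DNAJC6, the neuronal auxilin (10.09 and 9.12, a difference of -0.96), and ZFAND2A, a proteasome-associated heat shock gene (11.90 and 11.03, a difference of -0.87). The medians of the members and of this list were not tested against each other.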

How the data were processed

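The authors' deposited table gives log2 values for 33297 probe sets on 2 Affymetrix arrays, 1 per group; the unit was taken from the range of the values (1.95 to 14.17). The software, background correction and normalization were not given in the sources used here. Both columns are distributed almost alike, which makes a difference relative to the rest of the array, and an overall change in precipitated RNA would not show. No coordinates of probes are given because no build is named.

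Probe sets were named through the platform annotation (19460 with 1 symbol, 1754 with several, 12083 without a name here), with symbols updated through Entrez identifiers (19429 matched RefSeq). A gene's probe sets were averaged. No filter on low values was applied; filters at the median and at the 75th percentile of level, quantile normalization, cyclic loess, centring, the brightest probe set, added probe sets of several symbols, a 1.5-fold threshold and family means were alternatives. The counting step was tested on simulated data. Members, families, pairs and lists were chosen with earlier results of these data known. Every member may be named; of the other lists, the genes with the 2 largest differences each way at or above the median level are named, and of the marker lists those that check the cell type. Promoter and microRNA sequences are from RefSeq tables. A promoter was used for 46 of 53 members, after the exclusion of member windows by chromosome stated above. Python 3.11.15, pandas 2.3.3, R 4.3.3 and limma 3.58.1 were used. The number of arrays limits the precision.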

Additional observations from a re-analysis of the deposited data

How the results depend on the processing

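No paired analysis was possible because each group has 1 array. A value was counted as moved when it changed by more than the SD between probe sets (0.16), and a count when it changed by over 1.5 times. Quantile normalization, cyclic loess, centring, the brightest probe set and added probe sets of several symbols moved none of the 69 values each was applied to. Nor did counting identical probe sets once, which was chosen after seeing the data. Centring takes the same 0.053 from every difference, less than that SD, so it could move no difference, median or gap. The probe-set options can alter only values that rest on genes with several or shared probe sets. Above the 75th percentile of level, 1 entry was at least 2-fold higher, since HSPA2 fell below the filter, and the medians were 1.88 for inducible HSP70, -0.42 for the other HSP70 genes and 0.49 for the BAG genes, from fewer genes each. The filter at the median level also gave 1.88 for inducible HSP70, because HSPA6 was left out. At 1.5-fold, 4 entries were higher and 2 lower. The mean of the other HSP70 genes was 0.64, against a median of 0.24. Genes near background, such as CRYAB and HSPA6, have differences that low signal can understate.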

Other observations

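Helpers of the CCT ring and the mitochondrial quality-control genes, from lists outside the chaperone members, are described here beside the 58.6% of all measured genes, and 51.5% of those at or above the median level, that were higher with miR-130b. Of 19 measured prefoldin genes, CCT assistants and tubulin cofactors, 8 were higher and 11 lower (median -0.044). BBS10, a chaperonin-like gene of the Bardet-Biedl complex, stood at 9.05 on the empty-vector array and 8.31 on the miR-130b array, and PFDN2, a prefoldin subunit, at 11.13 and 10.64. TBCD, a tubulin cofactor, stood at 11.38 and 11.75, and PDCL3, a phosducin-like CCT partner, was at 0.30.

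Of 16 measured genes of mitochondrial import motors and proteases, 5 were higher, 10 lower and 1 equal, with a median of -0.10. LONP1, the matrix protease that degrades oxidised proteins, stood at 11.40 and 10.84 (-0.55), and OMA1, a stress-activated inner membrane protease, at 9.85 and 9.46 (-0.39). DNAJC11 and SPG7, the highest at or above the median level, were at 0.17 and 0.16. None of these genes was at least 2-fold different, beside 1.07% higher and 1.37% lower of all measured genes. With 1 array per group the differences describe these arrays.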
